A study of Danio rerio with 14 samples.

Results

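Eyes of zebrafish larvae raised in tetrabromobisphenol A (TBBPA), a brominated flame retardant that interacts with thyroid hormone receptors, were compared between 5 and 8 days post fertilization (dpf), that is, between the end of exposure and the end of 3 days in clean water. The samples were the 6 TBBPA samples among the 12 RNA samples of the series, 3 at 5 dpf and 3 at 8 dpf, chosen by their treatment and age labels. All larvae were of the wild-type AB strain, were raised in plates of 24 eggs, and each RNA sample was made from the pooled eyes of 10 larvae. The TBBPA groups held 200 µg/L TBBPA from 0 to 5 dpf, and the 8 dpf group was then moved to clean water. The control groups, 3 samples at 5 dpf and 3 at 8 dpf, were raised beside them at a TBBPA dose of 0 with, per the methods, the solvent dimethyl sulfoxide (DMSO), and went through the same move to clean water. The comparison asks how transcript levels in the eye changed as exposed larvae grew older in clean water. Age, time in clean water and time since exposure changed together in these 2 groups and cannot be told apart. The change in the controls is therefore set beside many of the results, though not all. Where no control value is given, the text does not tell whether the controls changed alike.

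At this stage the larval eye of zebrafish is already used for visually guided behaviour but still grows. New neurons are added by progenitors of the ciliary marginal zone at the rim of the retina, and central photoreceptors lengthen their outer segments, the stacks of membrane in which opsins catch light and the transducin and phosphodiesterase cascade closes cation channels. Cones dominate larval vision and rods come into use later. The lens adds fibre cells filled with crystallins, and the retina holds a light-driven circadian clock that turns transcripts up and down over the day. Thyroid hormone is known to act on opsin choice and on the growth of the zebrafish eye.

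Each of 14 two-colour Agilent arrays set 2 of the samples against each other, and log2 ratios were deposited for 17950 probes. The ratios hold no intensities and hence no absolute levels. A linear model (limma) of all arrays gave the change from 5 to 8 dpf as a log2 fold change ± standard error (SE), with n = 3 samples per group throughout, and a level for each sample relative to the mean of all 12. Levels are listed below in the order of replicates 1, 2 and 3. The ages met on only 4 arrays, 1 of which set TBBPA at 8 dpf directly against TBBPA at 5 dpf, and each of them held replicate 1 of TBBPA at 5 dpf (2 arrays, the TBBPA link sample below) or replicate 1 of the controls at 5 dpf (2 arrays, the control link sample). The distance between the levels at 8 and at 5 dpf therefore rests on these arrays, whose weights in the change lay between 0.164 and 0.336, and the fitted change can differ from the difference between the mean levels, since it gives the samples on the linking arrays more weight. The estimated share of the RNA sample in the variance was 0, so that SE and p take arrays and not plates as replicates. This estimate depends on the model. With a dye effect per probe added, the share was 0.318 for probes and 0.366 for genes. Ratios spread more on the linking arrays (SD 0.455 to 0.601) than on the 10 arrays that held 1 age (SD 0.226 to 0.338). The median SD of the sample levels was 0.0798 for TBBPA at 5 dpf and 0.125 for TBBPA at 8 dpf. Of the 12 samples, replicate 3 of the controls at 8 dpf lay farthest from the other replicates of its group, with a median absolute distance of 0.22 over genes on the log2 scale, and replicate 2 of TBBPA at 8 dpf came next with 0.15, standing apart for some transcripts such as the keratin krt92 given below. Of 13 defining markers of the eye, 12 had probes that passed the spot filter of the authors, which is all that ratios tell of presence. That filter dropped a spot only if it failed on all arrays, so passing it does not show signal in every group. The marker without a measured probe was rho, the rhodopsin gene.

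The transcriptome of TBBPA-treated eyes changed widely between the ages, with more transcripts down-regulated than up-regulated. At an adjusted p under 0.05 and an absolute log2 fold change over 0.75, a fold of 1.68, 1673 of the 17950 probes (9.32%) were called, 561 of them (3.13%) higher and 1112 (6.19%) lower at 8 dpf. Averaged per gene, 4217 of 8948 genes (47.1%) passed the adjusted p, 1762 (19.7%) as rises and 2455 (27.4%) as falls. The last 2 shares are the background for the counts of every gene list below. The words "rose" and "fell" are used below only of genes that passed the adjusted p. The 3 levels at 8 dpf did not overlap the 3 levels at 5 dpf in 4537 genes (50.7%), of which 2006 (22.4%) were higher and 2531 (28.3%) lower. Non-overlap of single genes below is description only. It was common over all genes and was a condition for naming the largest rises and falls. With the threshold on the fold, 724 genes (8.09%) were called, 195 (2.18%) higher and 529 (5.91%) lower. All 724 had the same sign on the array that compared the 2 groups directly, and 702 had it on all 4 linking arrays. These arrays carry most weight in the fit that called the genes, so this agreement is no separate support for the calls. In the controls 3312 genes (37.0%) passed between the same ages, 1276 (14.3%) higher and 2036 (22.8%) lower. The change itself differed between TBBPA and control larvae in 6 genes (0.0671%). The median change over all genes was -0.016 in TBBPA-treated fish and -0.0091 in controls. Leaving out the TBBPA link sample, and its arrays with it, lowered the number of genes passing to 1286 and that of called probes to 1056.

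**Figure D1:**
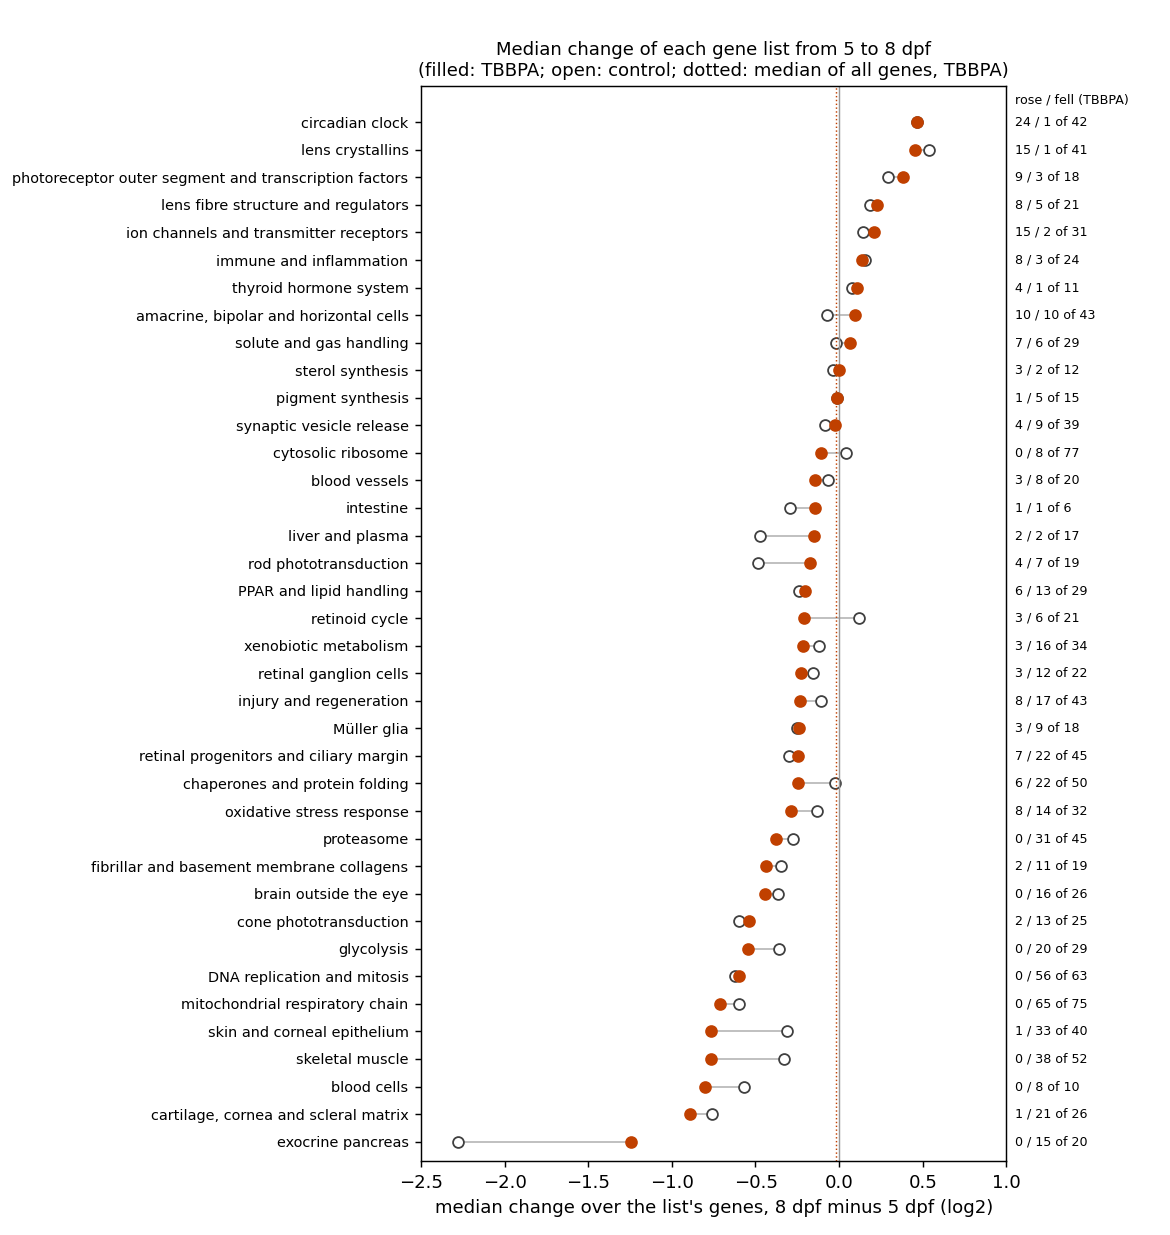
Median log2 change from 5 to 8 dpf over the measured genes of each of 38 gene lists (horizontal axis), in TBBPA-treated eyes (filled) and control eyes (open), with the numbers of genes that rose and fell in TBBPA-treated eyes at the right. Clock and crystallin lists lie farthest to the right and cartilage, blood, muscle, skin and pancreas lists farthest to the left, with the largest gap between the treatments in exocrine pancreas.

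Transcripts of cone phototransduction were down-regulated between 5 and 8 dpf. Of 25 measured genes of the cascade, 13 fell and 2 rose, with a median change of -0.54 against -0.016 over all genes. Levels of opn1lw2, which encodes a red-cone opsin, were -0.55, 0.026 and -0.45 at 8 dpf against 1.13, 1.21 and 1.43 at 5 dpf. All 3 samples at 8 dpf thus lay below those at 5 dpf, and opn1lw2 fell by 1.57 ± 0.23 (adjusted p = 9.81e-05), a 2.97-fold decrease. The green-cone opsin opn1mw1 had levels of -0.30, -0.11 and 0.074 after and 0.76, 1.00 and 1.48 before the days in clean water and fell by 1.19 ± 0.24 (adjusted p = 0.00102). Its near-identical neighbour opn1mw2, whose probes may share signal with opn1mw1, fell by 0.79 ± 0.14 (adjusted p = 0.000364). The second red-cone opsin, opn1lw1, fell by 0.70 ± 0.14 (adjusted p = 0.000829), while the blue-cone opsin opn1sw2 fell by 0.56 ± 0.13 (adjusted p = 0.00268) and the ultraviolet-cone opsin opn1sw1 fell by 0.55 ± 0.13 (adjusted p = 0.00249). Opsins of all 4 cone classes were therefore lower in the older eyes, by between 1.47-fold and 2.97-fold. The call of opn1sw2 was lost without the control link sample (adjusted p = 0.0704).

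Downstream of the opsins, gngt2b, the gamma subunit of cone transducin, had levels of -0.73, -0.24 and -0.33 at 8 dpf and 0.62, 0.50 and 1.06 at 5 dpf and fell by 1.2 ± 0.15 (adjusted p = 2e-05). The kinase grk7a, which switches off bleached cone opsin, fell from 0.41, 0.30 and -0.01 to -0.72, -0.52 and -1.09, a change of -1.12 ± 0.16 (adjusted p = 6.65e-05). Neither gene had overlapping levels between the ages. The catalytic cone phosphodiesterase subunit pde6c fell by 1.07 ± 0.17 (adjusted p = 0.000163), the transducin beta subunit gnb3b fell by 0.98 ± 0.17 (adjusted p = 0.00037) and the transducin alpha subunit gnat2 fell by 0.58 ± 0.13 (adjusted p = 0.00205). Against this direction, the second gamma subunit gngt2a rose by 0.51 ± 0.16 (adjusted p = 0.0148) and the guanylate cyclase activator guca1ab.1 rose by 0.54 ± 0.14 (adjusted p = 0.00487). These 2 rises were lost without the TBBPA link sample (adjusted p = 0.276 and 0.0914), whereas 12 genes of the list still fell. The rise of gngt2a was lost also without the control link sample or replicate 2 or 3 of TBBPA at 8 dpf (adjusted p = 0.102, 0.0676 and 0.108). With sample levels as observations neither gngt2a nor guca1ab.1 passed (adjusted p = 0.168 and 0.225).

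In controls the cascade moved in the same direction. There 14 of the 25 genes fell and 1 rose, with a median of -0.60. The control change of opn1lw2 was -1.45 and that of opn1mw1 -1.07, and the differences between treatments were -0.12 (adjusted p = 0.884) and -0.12 (adjusted p = 0.892). The widest gap among the cone opsins was in opn1lw1, with a control change of -0.22 and a difference of -0.48 that did not pass (adjusted p = 0.158). At 5 dpf the opn1lw2 levels of the controls were 0.13, 0.31 and 0.63, below the TBBPA samples of that age, and at 8 dpf they were -1.99, -1.10 and -0.78, again below the TBBPA samples. The 2 treatments thus kept their order at both ages while both moved down.

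**Figure D2:**
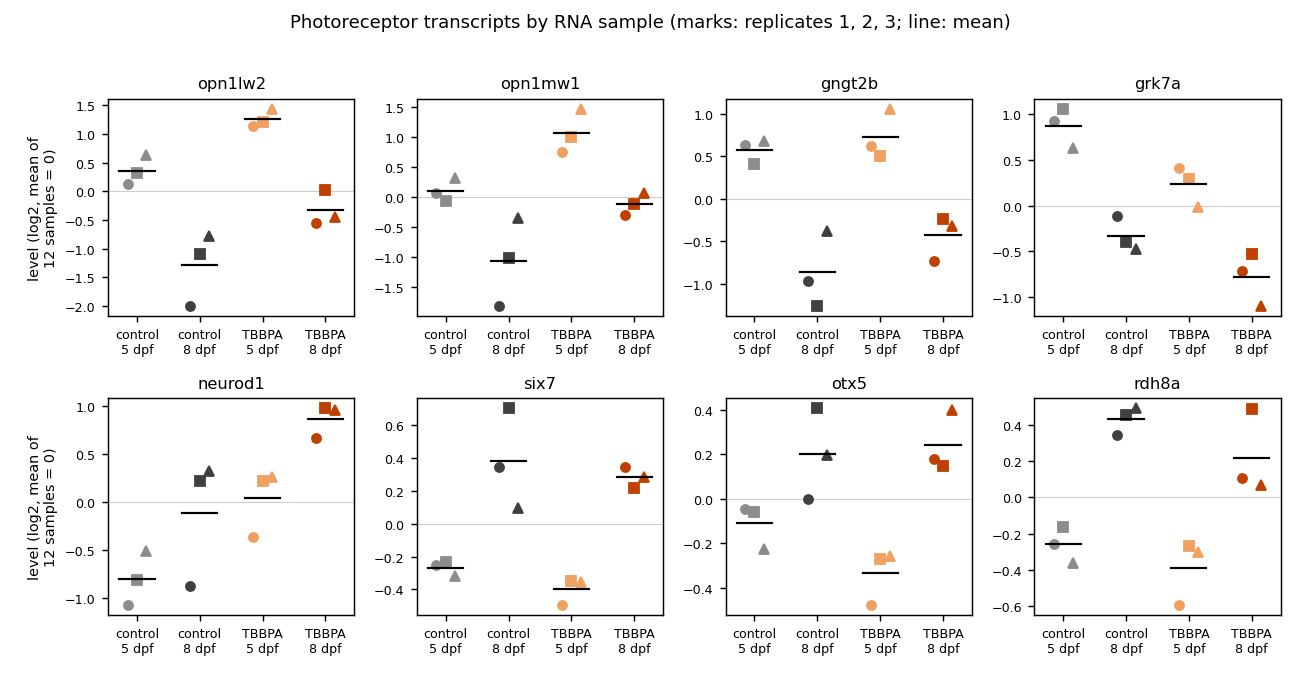
Level of 8 photoreceptor transcripts (vertical axes, log2 relative to the mean of the 12 samples) in each RNA sample of the 4 groups, with a line at each mean. The cone transcripts opn1lw2, opn1mw1, gngt2b and grk7a are lower at 8 dpf in both treatments, and in TBBPA-treated eyes neurod1, six7, otx5 and rdh8a are higher at 8 dpf.

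Of 19 measured genes of rod phototransduction 7 fell and 4 rose, beside 27.4% falls and 19.7% rises over all genes, with a median of -0.17 and of -0.48 in controls. In controls 11 of the 19 fell and 1 rose. For the difference between treatments 8 of the 19 had an unadjusted p under 0.05, beside 1094 of 8948 over all genes, and 0 passed after adjustment. The rhodopsin gene rho was not measured, and the rod transducin alpha gene gnat1 was measured but is not described singly. The gamma subunit of rod transducin, gngt1, had levels of -0.57, -0.16 and -0.63 at 8 dpf against 0.61, 0.94 and 0.78 at 5 dpf and fell by 1.18 ± 0.15 (adjusted p = 2.72e-05). The rod arrestins sagb and saga, which quench activated rhodopsin, fell by 1.08 ± 0.20 (adjusted p = 0.000469) and by 0.70 ± 0.078 (adjusted p = 7.27e-06). For saga the control change was -1.065, and the difference between treatments of 0.36 did not pass (adjusted p = 0.0954). The nuclear receptor nr2e3, which represses cone genes in rods, fell by 0.67 ± 0.066 (adjusted p = 2.4e-06). In contrast prph2a, a peripherin that shapes the rims of outer segment discs, went from -0.49, -0.11 and -0.27 to 0.29, 0.30 and 0.26 and rose by 0.74 ± 0.11 (adjusted p = 9.96e-05). With sample levels as observations, with the share of the RNA sample set to 0.5 or with the replicate number as a block, 7 genes of the list fell and 1 rose. Leaving out the TBBPA link sample left 4 falls and 1 rise in the list, and 1 to 2 rises were left without replicate 1 or 2 of the controls at 8 dpf, the control link sample or replicate 3 of TBBPA at 8 dpf.

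Transcription factors and structural genes of photoreceptors moved mostly, but not all, the other way from the cone cascade. Of 18 measured genes 9 rose and 3 fell, with a median of 0.38. The proneural factor neurod1, which acts in photoreceptor differentiation and survival, had levels of 0.66, 0.98 and 0.95 at 8 dpf and -0.36, 0.22 and 0.26 at 5 dpf and rose by 1.04 ± 0.25 (adjusted p = 0.00323). The homeobox factor six7, needed for middle-wavelength cone opsins in zebrafish, was at 0.35, 0.22 and 0.29 against -0.50, -0.35 and -0.35 and rose by 0.79 ± 0.10 (adjusted p = 1.87e-05). The 2 ages did not overlap for either factor. The homeobox factor otx5, which acts in photoreceptor and clock output genes of the fish eye and pineal organ, rose by 0.64 ± 0.10 (adjusted p = 0.000182). Levels of rdh8a, the retinol dehydrogenase that clears all-trans retinal from outer segments, were 0.10, 0.49 and 0.067 and -0.59, -0.27 and -0.30, and it rose by 0.71 ± 0.10 (adjusted p = 6.75e-05). The 3 falls were those of nr2e3, given above and the largest (-0.67 ± 0.066), of prdm1a (-0.57 ± 0.059, adjusted p = 3.63e-06) and of elovl4b, an elongase of very long fatty acids (-0.50 ± 0.084, adjusted p = 0.000271). Of their probes taken singly, only 1 of 2 for prdm1a and 1 of 3 for elovl4b passed as falls. In controls 9 of the 18 rose, the median was 0.29, and the control changes of neurod1, six7 and rdh8a were 1.02, 0.73 and 0.82. Without the TBBPA link sample 3 genes of the list rose, and otx5 no longer passed (adjusted p = 0.0721). Without the control link sample neurod1 no longer passed (adjusted p = 0.0534).

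In the retinoid cycle, which returns bleached chromophore to the opsins, 6 of 21 measured genes fell and 3 rose. This is close to the 27.4% falls and 19.7% rises over all genes. The median was -0.21, and 0.12 in controls. The isomerase of the pigment epithelium, rpe65a, had levels of -0.37, -0.68 and -0.56 at 8 dpf against 0.12, 0.23 and -0.10 at 5 dpf and fell by 0.76 ± 0.15 (adjusted p = 0.000772). Its partner rlbp1a, which binds 11-cis retinal, fell by 0.74 ± 0.093 (adjusted p = 2.2e-05), whereas rbp4l, a retinol-binding protein secreted in the retina, rose by 0.53 ± 0.10 (adjusted p = 0.000656). The control changes were -0.64 for rpe65a, -0.91 for rlbp1a and 0.20 for rbp4l, and the difference between treatments passed for none of these 3 (adjusted p = 0.81, 0.516 and 0.182). Of 15 genes of pigment synthesis 5 fell and 1 rose. Among them tyrp1b, a melanin synthesis protein, was at -0.79, -0.50 and -0.59 against 0.47, 0.70 and 0.42 and fell by 1.22 ± 0.19 (adjusted p = 0.00016), and gch2, which starts pteridine synthesis, fell by 1.27 ± 0.25 (adjusted p = 0.000926). With the TBBPA link sample left out, 2 retinoid and 2 pigment genes fell, and the adjusted p was 0.0542 for rpe65a, 0.075 for rbp4l and 0.095 for gch2. The retinoid falls were 2 or 3 also without the control link sample or any replicate of the controls at 8 dpf.

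Of 41 measured crystallin genes, which encode the bulk protein of the lens, 15 rose, 1 fell and 25 did not pass, with a median of 0.46, the second highest of the 38 lists. The gamma-M crystallin crygm1 had levels of 0.92, 0.68 and 1.14 at 8 dpf against -0.75, -0.94 and -0.54 at 5 dpf and rose by 1.69 ± 0.12 (adjusted p = 6.94e-08), a 3.22-fold increase. Levels of crygs4, a gamma-S crystallin, were 0.79, 0.87 and 0.61 and -0.56, -0.60 and -0.66, and it rose by 1.21 ± 0.11 (adjusted p = 1.29e-06). The ages did not overlap for these 2 genes, which for crygm1 was a condition of its place among the largest rises. Further rises were those of crygmxl2 (1.34 ± 0.18), crygm7 (1.17 ± 0.10) and the beta-crystallin cryba4 (0.62 ± 0.13). Gamma-M crystallin genes are near-identical copies, so that signal may be shared between their probes and their separate values are uncertain. Averaged over the 41 genes, the level was 0.014, 0.59 and 0.34 in the 3 samples at 8 dpf and -0.30, 0.049 and -0.092 in those at 5 dpf, with replicate 2 highest at both ages. Without replicate 2 of TBBPA at 8 dpf the median was 0.29, less than its value with all samples by over 1.5 times. The number of crystallin genes that rose was 6 without the TBBPA link sample and 9 without replicate 3 of TBBPA at 8 dpf, and cryba4 did not pass in the first of these (adjusted p = 0.107).

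Of 21 further lens fibre genes 8 rose and 5 fell, beside 19.7% rises and 27.4% falls over all genes. The lens-specific galectin relative grifin rose by 1.5 ± 0.30 (adjusted p = 0.000892), and the lens membrane proteins lim2.4 and lim2.5 rose by 1.09 ± 0.14 (adjusted p = 2.06e-05) and by 1.29 ± 0.26 (adjusted p = 0.000917). Levels of lim2.4 were 0.33, 0.98 and 0.67 at 8 dpf and -0.49, -0.21 and -0.47 at 5 dpf, with no overlap. By contrast mipa, the lens aquaporin, fell by 0.31 ± 0.10 (adjusted p = 0.0223) and its call was lost without each of 5 single samples, which were the TBBPA link sample (adjusted p = 0.307), the control link sample (0.0548), replicates 1 and 3 of the controls at 8 dpf (0.131 and 0.0589) and replicate 2 of TBBPA at 8 dpf (0.159). It was lost also under 7 other alternatives, among them sample levels as observations (adjusted p = 0.22), the share of the RNA sample set to 0.5 (0.176) and the replicate number as a block (0.119). In controls 18 crystallin genes rose and the crystallin median was 0.54. The control change was 1.52 for crygm1, 1.04 for crygs4 and 1.25 for lim2.4. Falls among lens fibre genes were 3 without either link sample, replicate 1 or 3 of the controls at 8 dpf or replicate 2 of TBBPA at 8 dpf, and 5 of them rose without the control link sample. Once the TBBPA link sample was left out, 1 lens fibre gene rose, and grifin and lim2.5 had an adjusted p of 0.206 and 0.0869.

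Genes of DNA replication and mitosis, which mark dividing cells, fell almost as a block. Of 63 measured genes 56 fell and 0 rose, against 27.4% falls among all genes, with a median of -0.60. Levels of mcm2, a subunit of the replicative helicase, were -1.06, -0.57 and -0.47 at 8 dpf and 0.87, 0.65 and 0.64 at 5 dpf, and it fell by 1.6 ± 0.11 (adjusted p = 9.22e-08), a 3.03-fold decrease. Its partners mcm5 and mcm6 fell by 1.54 ± 0.10 (adjusted p = 6.28e-08) and by 1.42 ± 0.10 (adjusted p = 6.56e-08). Of the mitotic genes, top2a, the topoisomerase that untangles chromosomes, was at -0.68, -0.45 and -0.43 against 0.59, 0.57 and 0.69 and fell by 1.19 ± 0.07 (adjusted p = 1.66e-08). The spindle kinesin kif11 fell by 1.32 ± 0.092 (adjusted p = 8.61e-08), and the cyclins ccna2 and ccnb1 fell by 1.09 ± 0.082 (adjusted p = 1.63e-07) and by 0.95 ± 0.10 (adjusted p = 5.9e-06). In each of these 7 genes the levels at 8 dpf lay below all levels at 5 dpf. The sliding clamp pcna fell less, by 0.39 ± 0.073 (adjusted p = 0.000548), and did not pass without the TBBPA link sample (adjusted p = 0.0859). The histone variant h2az2b fell by 1.79 ± 0.15 (adjusted p = 4.3e-07) and stmn1a, a microtubule destabiliser of dividing cells and growing neurons, fell by 2.07 ± 0.11 (adjusted p = 4.4e-09). In controls 55 of the 63 fell with a median of -0.62, and the control change of mcm2 was -1.59. For the difference between treatments 4 of the 63 genes had an unadjusted p under 0.05, beside 1094 of 8948 over all genes. When the TBBPA link sample was omitted, 40 genes of the list fell.

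Markers of retinal progenitors and of newly born neurons followed. Of 45 genes 22 fell and 7 rose, with a median of -0.24. The largest fall was that of tubb5, a beta-tubulin of new neurons, at -1.69, -1.07 and -1.01 at 8 dpf against 1.86, 1.27 and 1.6 at 5 dpf, and it fell by 3.12 ± 0.19 (adjusted p = 2.24e-08), an 8.7-fold decrease. The Notch targets her15.1 and her6, which keep progenitors undifferentiated, fell by 1.67 ± 0.18 (adjusted p = 5.56e-06) and by 1.07 ± 0.12 (adjusted p = 5.83e-06), and hes6, which favours differentiation, fell by 1.09 ± 0.084 (adjusted p = 2.27e-07). Of the factors of cells leaving the cell cycle, sox11b fell by 1.75 ± 0.11 (adjusted p = 1.96e-08), insm1b fell by 0.81 ± 0.06 (adjusted p = 1.4e-07) and ascl1a fell by 0.63 ± 0.12 (adjusted p = 0.000669). Rises were fewer and included six6b (0.51 ± 0.10, adjusted p = 0.000912), rx1 (0.44 ± 0.079, adjusted p = 0.000435), both eye-field factors that the differentiated retina also expresses, and the nuclear receptor nr2f1b (0.64 ± 0.091, adjusted p = 6.37e-05). In controls 24 genes of the list fell and 6 rose, and the control changes of tubb5 and her15.1 were -3.22 and -1.44. Without the TBBPA link sample 16 fell and 3 rose. Pooled eyes do not tell a smaller share of progenitors from less RNA per cell, here or for any other cell type.

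**Figure D3:**
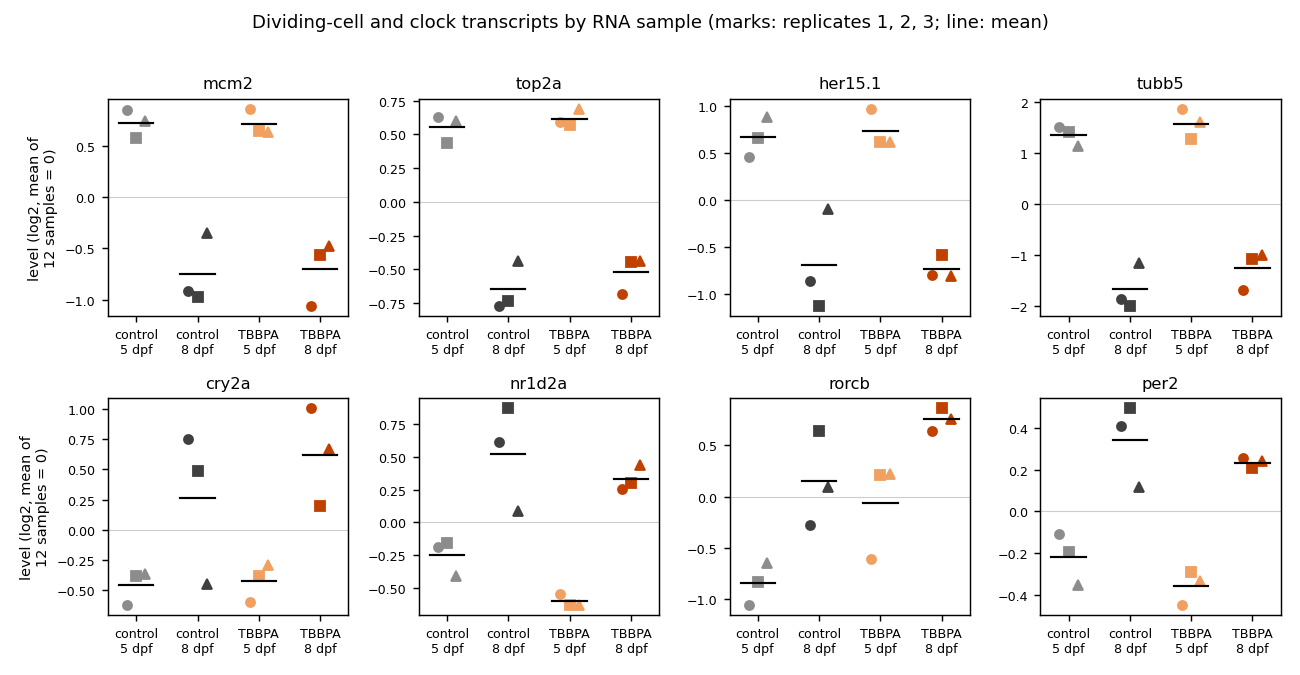
Level of 4 transcripts of dividing cells, progenitors or new neurons (upper row) and 4 clock transcripts (lower row) in each RNA sample, in log2 relative to the mean of the 12 samples, with a line at each group mean. The upper row is lower and, in TBBPA-treated eyes, the lower row higher at 8 dpf, with no overlap between the ages.

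Of 22 ganglion cell genes 12 fell and 3 rose. Levels of stmn2b, a stathmin of growth cones, were -0.61, -0.99 and -0.77 at 8 dpf and 0.94, 0.76 and 0.97 at 5 dpf, and it fell by 1.77 ± 0.09 (adjusted p = 4.13e-09). The growth cone protein gap43 was at -0.56, -0.49 and -0.54 against 0.84, 0.34 and 0.57 and fell by 1.25 ± 0.11 (adjusted p = 1.09e-06). In the same list rbpms2b, an RNA-binding protein of ganglion cells, rose by 0.67 ± 0.09 (adjusted p = 3.7e-05). Among 31 ion channels and transmitter receptors 15 rose and 2 fell, with a median of 0.21 and of 0.14 in controls, where 9 rose. The obligate subunit of NMDA glutamate receptors, grin1b, was at 0.30, 0.14 and 0.11 at 8 dpf and -0.67, -0.35 and -0.45 at 5 dpf and rose by 0.93 ± 0.16 (adjusted p = 0.00039), and the kainate receptor gene grik1a rose by 0.65 ± 0.12 (adjusted p = 0.000454). With the probe of largest spread in place of the mean of its probes, grin1b did not pass (adjusted p = 0.139). With the TBBPA link sample left out, 1 channel gene rose (9 with sample levels as observations) and 7 ganglion cell genes fell, and grik1a did not pass (adjusted p = 0.0859). Without replicate 1 of the controls at 8 dpf 9 channel genes rose, and without replicate 2 of TBBPA at 8 dpf 7 ganglion cell genes fell.

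Amacrine, bipolar and horizontal cell genes had 10 rises and 10 falls among 43, and a median of 0.10. These shares are near those of all genes, of which 19.7% rose and 27.4% fell. The larger changes of the list were falls. Its values spanned -2.092 to 0.965, and with the threshold on the fold 4 genes fell and 1 rose. The gene with the largest passing fall, pvalb1, is also in the skeletal muscle list, and its call was lost without the TBBPA link sample. The genes described next are rises, and the falls are not described singly. The cation channel of ON bipolar cells, trpm1a, had levels of 0.0046, 0.54 and 0.52 at 8 dpf and -0.47, -0.63 and -0.72 at 5 dpf and rose by 0.96 ± 0.11 (adjusted p = 1.32e-05). The photoreceptor synapse protein lrit1a rose by 0.64 ± 0.13 (adjusted p = 0.000954), and gja9b, a connexin of retinal gap junctions, rose by 0.58 ± 0.084 (adjusted p = 8.46e-05). Of 39 genes of vesicle release 9 fell and 4 rose, close to the medians of all genes (-0.026 against -0.016). Müller glia, the supporting cells of the retina, had 9 falls and 3 rises among 18 genes, with a median of -0.24. Changes in this list ran from -1.175 to 1.155. The 4 largest falls were those of fabp7a, rlbp1a, sox9b and crabp1a. Of these, rlbp1a is also in the retinoid cycle list and is given above, and the other falls are not described singly. The rises were those of vim, an intermediate filament (1.16 ± 0.15, adjusted p = 2.67e-05), apoeb (0.60 ± 0.10, adjusted p = 0.000225) and the glutamine synthetase glula (0.44 ± 0.10, adjusted p = 0.00273). Once the TBBPA link sample was left out, 3 interneuron genes rose and 1 fell, 3 vesicle genes fell and 0 rose, 5 glial genes fell, and glula did not pass (adjusted p = 0.0863). It did not pass without the control link sample either (adjusted p = 0.0575), where 4 interneuron genes fell. Without replicate 1 of the controls at 8 dpf 6 interneuron genes rose and 5 fell, and 5 glial genes fell. Without replicate 3 of the controls at 5 dpf or replicate 1 or 2 of TBBPA at 8 dpf 7 vesicle genes rose.

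Clock transcripts had the highest median of the 38 lists. Of 42 measured genes of the circadian clock 24 rose and 1 fell, with a median of 0.47 in TBBPA-treated fish and 0.47 in controls, where 24 rose. Of 10 cryptochrome genes in the list, which encode repressors of the clock or relatives of light receptors, 8 rose. Levels of cry2a were 1.01, 0.19 and 0.67 at 8 dpf and -0.60, -0.38 and -0.30 at 5 dpf, and it rose by 1.38 ± 0.20 (adjusted p = 9.13e-05). Its relatives cry2b and cry3a rose by 1.3 ± 0.23 (adjusted p = 0.00037) and by 1.42 ± 0.23 (adjusted p = 0.000202), and cry1a, which light induces in zebrafish, rose by 0.66 ± 0.078 (adjusted p = 1.4e-05). Of the clock genes given here, cry1a, nr1d2a, rorcb, rorab and per2 were named after their values were seen. The clock genes nr1d1 and per1b, which are on the list of genes always named, were measured but are not described singly. Nuclear receptors of the stabilising loop were also among the rises. For nr1d2a, a repressor of the REV-ERB type, the levels were 0.26, 0.30 and 0.44 and -0.55, -0.63 and -0.63 and the change 1.02 ± 0.17 (adjusted p = 0.00019). The activator rorcb was at 0.64, 0.86 and 0.76 against -0.61, 0.22 and 0.22 and rose by 1.22 ± 0.24 (adjusted p = 0.000844), and rorab rose by 0.98 ± 0.11 (adjusted p = 6.06e-06). The light-induced period gene per2 rose by 0.66 ± 0.11 (adjusted p = 0.000175), and the activator bmal1a rose by 0.60 ± 0.15 (adjusted p = 0.00576). The output repressor nfil3-5 had the largest change, 2.11 ± 0.55 (adjusted p = 0.00577), but its levels were wide apart within the groups, at 1.54, 1.58 and 1.94 at 8 dpf and -0.73, 0.34 and 0.76 at 5 dpf. The kinase csnk1da, which marks period proteins for degradation, was the only gene of the list that fell (-0.48 ± 0.11, adjusted p = 0.00318).

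The control values of clock genes were close for some and spread for others. Control levels of cry2a were 0.75, 0.49 and -0.45 at 8 dpf and -0.62, -0.39 and -0.37 at 5 dpf, with replicate 3 at 8 dpf apart from the others. Those of rorcb were -0.28, 0.64 and 0.092 and -1.06, -0.83 and -0.64. The control change was 0.90 for cry2a, 0.83 for nr1d2a and 0.58 for per2, and the difference between treatments passed for none of these 3 (adjusted p = 0.353, 0.707 and 0.812). Per the methods all larvae were sampled within a short window of the morning. The part of the hour within that window in the clock values was not tested. When the TBBPA link sample was omitted, 10 clock genes rose, and the adjusted p was 0.0571 for cry3a, 0.0518 for rorcb, 0.0835 for per2 and 0.18 for nfil3-5. The gene nfil3-5 also missed the threshold without replicate 3 of TBBPA at 8 dpf (adjusted p = 0.0518), and bmal1a without the control link sample (adjusted p = 0.0674) or with sample levels as observations (0.0746).

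Of 11 measured genes of the thyroid hormone system, 4 rose and 1 fell, with a median of 0.10. The largest change was in klf9, a transcription factor that thyroid hormone and glucocorticoids induce in vertebrates, at 0.57, 0.83 and 0.76 at 8 dpf against -0.85, -0.54 and -0.80 at 5 dpf, and it rose by 1.53 ± 0.16 (adjusted p = 2.98e-06). The hormone transporter slco1c1 rose by 0.54 ± 0.093 (adjusted p = 0.000291), the corepressor ncor1 rose by 0.37 ± 0.079 (adjusted p = 0.00165) and the activating deiodinase dio2 rose by 0.27 ± 0.07 (adjusted p = 0.00547). The deiodinase dio1 fell by 0.44 ± 0.094 (adjusted p = 0.00172). For the receptor thraa the change was 0.16 ± 0.11 (adjusted p = 0.26). The receptor thrb was measured too but is not described singly. The control changes were 1.66 for klf9, 0.49 for slco1c1 and 0.10 for dio2. For the difference between treatments 1 of the 11 genes had an unadjusted p under 0.05, beside 1094 of 8948 over all genes. Without the TBBPA link sample only klf9 passed, and the adjusted p was 0.0703 for slco1c1, 0.104 for ncor1, 0.331 for dio2 and 0.23 for dio1. The call of dio2 was lost too without replicate 3 of TBBPA at 8 dpf (adjusted p = 0.102) or without the direct array (0.0654), and that of ncor1 with sample levels as observations (0.0603).

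Matrix genes of cartilage, cornea and sclera held several of the largest falls. Of 26 measured genes 21 fell and 1 rose, with a median of -0.89 and of -0.76 in controls. Levels of col9a3, a collagen of cartilage fibrils, were -1.32, -1.18 and -1.53 at 8 dpf and 1.70, 1.65 and 1.44 at 5 dpf, and it fell by 3.09 ± 0.14 (adjusted p = 1.38e-09), an 8.51-fold decrease. The main cartilage collagen col2a1a was at -1.24, -1.34 and -1.21 against 1.38, 1.65 and 1.38 and fell by 2.68 ± 0.085 (adjusted p = 5.56e-11). The cartilage matrix protein matn1 fell by 2.45 ± 0.12 (adjusted p = 2.3e-09). No level of these 3 genes overlapped between the ages, which for col9a3 and col2a1a was a condition of their place among the largest falls. The single rise was that of kera, the proteoglycan keratocan of the corneal stroma, with levels of 0.74, 0.89 and 1.35 at 8 dpf and -0.10, -0.12 and -0.02 at 5 dpf, and it rose by 1.04 ± 0.16 (adjusted p = 0.000121). Of 19 fibrillar and basement membrane collagen genes 11 fell and 2 rose, among the falls col1a2, a chain of type I collagen (-2.16 ± 0.11, adjusted p = 3.81e-09). The control change was -2.70 for col9a3, -2.70 for col2a1a and 0.77 for kera.

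Genes of energy metabolism fell together. Of 75 genes of the mitochondrial respiratory chain 65 fell and 0 rose, with a median of -0.71. Averaged over the list, the level was -0.42, -0.15 and -0.32 at 8 dpf and 0.31, 0.30 and 0.27 at 5 dpf, with no overlap. The cytochrome c gene cycsb was at -0.85, -0.53 and -1.11 against 0.66, 0.52 and 0.46 and fell by 1.6 ± 0.13 (adjusted p = 3.84e-07). The cytochrome oxidase subunit cox5ab fell by 1.37 ± 0.14 (adjusted p = 2.79e-06) and the ATP synthase subunit atp5mc1 fell by 1.27 ± 0.10 (adjusted p = 2.22e-07). Of 29 glycolysis genes 20 fell and 0 rose, with enolase eno1b at -1.18, -0.34 and -0.82 against 0.64, 0.63 and 0.54, a change of -1.42 ± 0.13 (adjusted p = 9.2e-07). In controls 60 respiratory chain genes and 15 glycolysis genes fell, with medians of -0.60 and -0.36. With the TBBPA link sample left out, 43 and 11 genes of the 2 lists fell. Ribosomal protein genes did not share in this fall, since 8 of 77 fell and the median was -0.11, and without each single sample between 0 and 19 of them fell.

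The proteasome list held 31 falls and 0 rises among 45 genes, with a median of -0.38, and 11 falls without the TBBPA link sample. The core particle subunit psma2a was at -0.55, -0.17 and -0.42 at 8 dpf and 0.49, 0.36 and 0.35 at 5 dpf and fell by 0.84 ± 0.12 (adjusted p = 6.62e-05). Of 50 chaperone genes 22 fell and 6 rose. The collagen chaperone serpinh1b fell by 1.94 ± 0.20 (adjusted p = 2.8e-06) and calr, a lectin chaperone of the endoplasmic reticulum, fell by 1.07 ± 0.11 (adjusted p = 2.72e-06), whereas fkbp5, an immunophilin that glucocorticoids induce, rose by 0.60 ± 0.10 (adjusted p = 0.000286) and ddit3, the stress factor CHOP, rose by 0.60 ± 0.10 (adjusted p = 0.000329). The median of the chaperones was -0.24 in TBBPA-treated fish and -0.022 in controls. Leaving out the TBBPA link sample left 10 falls and 2 rises in the chaperone list, and leaving out replicate 3 of TBBPA at 8 dpf left 14 falls.

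Of the genes of lipid handling 13 of 29 fell and 6 rose. The mitochondrial beta-oxidation enzyme hadhb was at -0.76, -0.38 and -0.61 at 8 dpf and 0.94, 0.55 and 0.64 at 5 dpf and fell by 1.49 ± 0.12 (adjusted p = 3.12e-07). The fatty acid binding protein fabp1a fell by 1.31 ± 0.13 (adjusted p = 2.17e-06). Rises were seen for lpla, a lipoprotein lipase (1.04 ± 0.12, adjusted p = 8.37e-06), and for the fatty acid receptor pparaa (0.98 ± 0.082, adjusted p = 4.51e-07). Xenobiotic metabolism had 16 falls and 3 rises among 34 genes, led by the glutathione transferase gstp1.2, which was at -0.98, -0.34 and -0.67 against 0.47, 0.87 and 0.59 and fell by 1.3 ± 0.15 (adjusted p = 1.3e-05). Oxidative stress genes fell in 14 and rose in 8 of 32. The peroxiredoxin prdx1 fell by 1.47 ± 0.082 (adjusted p = 8.35e-09), and the stress-induced sestrin sesn1 was at 0.76, 0.28 and 0.71 against -0.69, -0.48 and -0.59 and rose by 1.3 ± 0.13 (adjusted p = 2.8e-06). Once the TBBPA link sample was left out, 5 xenobiotic genes fell, 7 oxidative stress genes fell and 1 rose, and 2 lipid genes rose. Rises of 2 or 3 lipid genes were left also without any replicate of the controls at 8 dpf or replicate 3 of TBBPA at 8 dpf, and 3 to 5 oxidative stress genes rose without the control link sample, replicate 2 of the controls at 8 dpf or replicate 3 of TBBPA at 8 dpf. Only the first of these 3 lowered the falls among oxidative stress genes by over 1.5 times, to 9.

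Injury and regeneration genes included 17 falls and 8 rises among 43. The growth factor binding protein igfbp1b, which fasting and hypoxia induce in fish, was at 0.92, 0.89 and 1.06 at 8 dpf and -1.12, -0.76 and -0.61 at 5 dpf and rose by 1.78 ± 0.14 (adjusted p = 3.24e-07). The cytokine feedback inhibitor socs3a rose by 1.04 ± 0.21 (adjusted p = 0.00108), with an adjusted p of 0.201 without the TBBPA link sample. The matrix protease mmp2 was at -0.64, -0.68 and -0.40 against 0.92, 1.09 and 0.85 and fell by 1.65 ± 0.20 (adjusted p = 1.76e-05). The vault protein mvp fell by 0.99 ± 0.18 (adjusted p = 0.000506) against -0.15 in controls, and the difference of -0.84 did not pass (adjusted p = 0.0954). Of 24 immune genes 8 rose and 3 fell, and of 29 genes of solute and gas handling 7 rose and 6 fell. Over all genes 19.7% rose and 27.4% fell. The glutamate transporter slc1a7a of photoreceptor and bipolar cell terminals was at 0.31, 0.73 and 1.03 against -0.58, -0.33 and -0.11 and rose by 1.16 ± 0.15 (adjusted p = 3.14e-05), while aqp3a, an aquaporin of skin and other epithelia, fell by 1.55 ± 0.19 (adjusted p = 1.53e-05). When the TBBPA link sample was omitted, 3 injury, 3 immune and 1 solute genes rose, and 4 solute genes fell. Without the control link sample 4 immune genes rose.

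Markers of tissues that lie around the dissected eye or outside it moved with age as well. In skin and corneal epithelium 33 of 40 genes fell and 1 rose, with a median of -0.76 against -0.31 in controls, and the mean level over the list was -0.60, -0.30 and -0.35 at 8 dpf and 0.53, 0.67 and 0.50 at 5 dpf. The keratin krt1-19e had the largest fall of all genes. It was at -1.63, -1.42 and -1.5 against 1.71, 1.84 and 1.51 and fell by 3.337 ± 0.14 (adjusted p = 1.37e-09) and its control change was -3.10. The keratin krt92 fell by 2.24 ± 0.26 (adjusted p = 1.02e-05), from 1.07, 1.32 and 1.04 at 5 dpf to -1.89, -0.38 and -1.25 at 8 dpf, with replicate 2 at 8 dpf apart from replicates 1 and 3. In the list of skeletal muscle 38 of 52 genes fell and 0 rose, with a median of -0.77 and of -0.33 in controls. The parvalbumin pvalb4 was at -1.09, -1.03 and -0.80 against 1.14, 1.08 and 1.15 and fell by 2.14 ± 0.23 (adjusted p = 5.52e-06), and the mean level over the muscle list was -0.46, -0.33 and -0.19 at 8 dpf and 0.46, 0.34 and 0.33 at 5 dpf. The difference between treatments passed for 1 skin gene and 0 muscle genes, but 30 of the 40 skin genes and 32 of the 52 muscle genes had an unadjusted p under 0.05. Over all genes 1094 of 8948 had such an unadjusted p. In controls the mean level over the skin list was -0.62, -0.46 and -0.025 at 8 dpf and 0.095, 0.086 and 0.48 at 5 dpf. That over the muscle list was -0.33, -0.45 and 0.13 at 8 dpf and -0.039, 0.15 and 0.385 at 5 dpf. Replicate 3 was highest in each control group for both lists, and the muscle levels overlapped between the ages. The genes of a list share these samples, so their counts are not separate support. Without the TBBPA link sample 19 muscle genes and 23 skin genes fell.

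Exocrine pancreas, whose enzymes the eye does not make, had 15 falls and 0 rises among 20 genes, with a median of -1.25 in TBBPA-treated fish and -2.28 in controls. The mean list level was -0.57, -0.39 and -0.77 at 8 dpf and 0.41, 0.20 and -0.20 at 5 dpf with TBBPA, and -0.33, -0.81 and -0.62 and 1.67, 0.85 and 0.55 in controls. Replicate 1 was highest within each 5 dpf group. All 20 genes had an unadjusted p under 0.05 for the difference between treatments, beside 1094 of 8948 over all genes, and 0 passed after adjustment. The amylase amy2a was at -0.97, -1.02 and -1.73 against 0.99, 0.23 and -0.36 and fell by 2.2 ± 0.47 (adjusted p = 0.00148), with a control change of -3.97. Taken from the levels of the 12 samples, in which each sample has equal weight, the median of the list was -0.79 and 9 genes fell, and without the TBBPA link sample 4 fell. Blood cell genes fell in 8 of 10 cases with a median of -0.80, the embryonic globin hbae1.1 being at -1.04, -1.35 and -0.52 against 1.80, 1.44 and 1.51, a change of -2.93 ± 0.23 (adjusted p = 2.59e-07). Globin genes are near-identical copies and their separate values are uncertain. Of 26 markers of brain outside the eye 16 fell and 0 rose, among them olig2, a factor of oligodendrocyte and motor neuron precursors (-1.36 ± 0.071, adjusted p = 4.4e-09), and 9 fell without the TBBPA link sample. For liver and plasma 2 of 17 fell and 2 rose, and without replicate 2 of TBBPA at 8 dpf 4 rose. The part of these tissues in the changes of other lists was not tested.

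**Figure D4:**
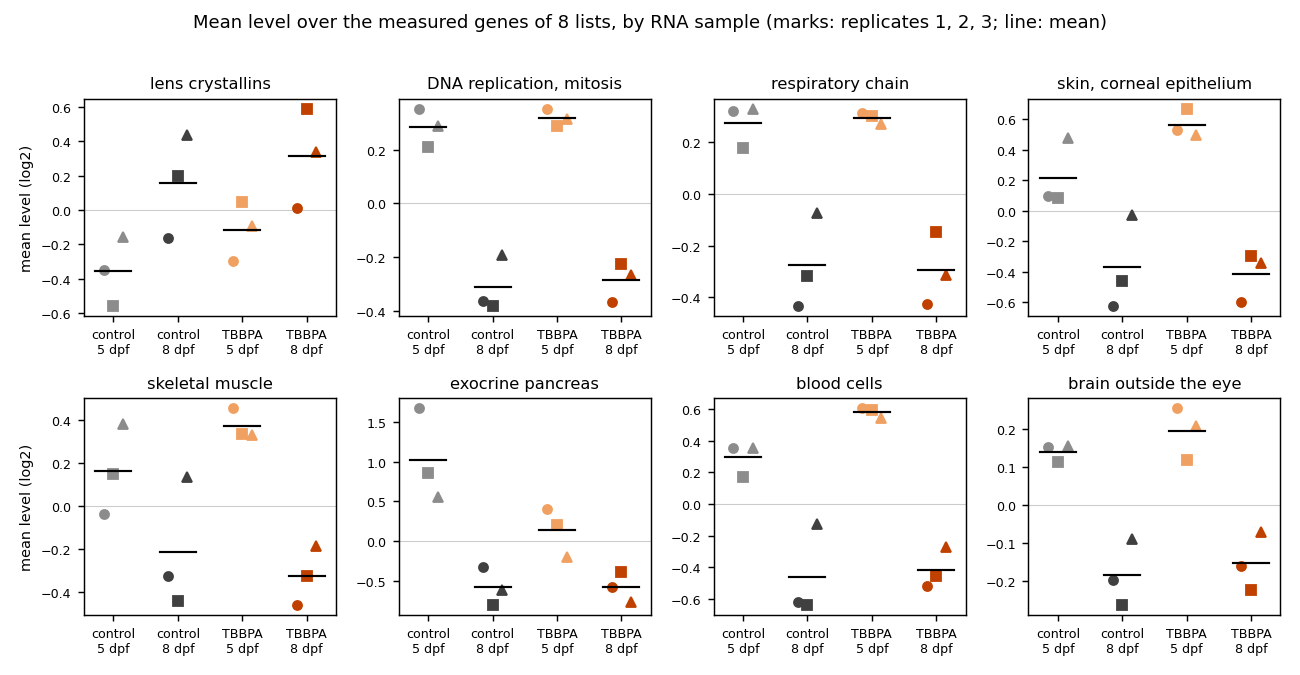
Mean level (log2) over the measured genes of 8 lists in each RNA sample of the 4 groups, with a line at each mean. With TBBPA the 3 samples at 8 dpf lie below the 3 at 5 dpf in all lists but the crystallins, where the groups overlap, and exocrine pancreas has the widest gap between TBBPA and control samples at 5 dpf.

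Beyond the lists, the largest rises by the rule for named genes were led by slc43a2b, an amino acid transporter, at 1.15, 0.71 and 0.76 at 8 dpf and -1.39, -1.01 and -1.08 at 5 dpf, and it rose by 2.25 ± 0.12 (adjusted p = 6.44e-09), a 4.77-fold increase. The stress-responsive gene ndrg1b was at 0.22, 1.74 and 1.08 against -1.31, -0.35 and -0.60 and rose by 2.16 ± 0.30 (adjusted p = 5.42e-05). The beta-defensin gene defbl2 rose by 2.15 ± 0.10 (adjusted p = 2.44e-09), the phosphatidate phosphatase lpin1a rose by 1.89 ± 0.16 (adjusted p = 4.47e-07), the semaphorin sema6ca rose by 1.76 ± 0.14 (adjusted p = 2.43e-07) and mylipa, a ubiquitin ligase that lowers lipoprotein receptors in mammals, rose by 1.62 ± 0.10 (adjusted p = 1.92e-08). The other 6 of the 12 were nfil3-5, igfbp1b and crygm1, given above, and the less described si:ch211-81a5.8, zgc:153846 and zgc:153704, which rose by 1.95, 1.94 and 1.77. Control changes were 2.16 for slc43a2b, 2.51 for ndrg1b and 1.64 for lpin1a. The 12 largest falls were krt1-19e, tubb5, col9a3, col2a1a and hbae1.1, given above, the histone hist1h2a3 (-2.88 ± 0.13), the globin hbae3 (-2.54 ± 0.24), and zgc:153405, zgc:110216, si:busm1-118j2.5, wu:fb15e04 and zgc:136930, which lay between -3.26 ± 0.19 and -2.55 ± 0.12. Values of histone and globin genes are uncertain for the reason of near-identical copies.

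Of 8948 genes, the change from 5 to 8 dpf differed between TBBPA and control larvae in 6 after adjustment, and in 1094 at an unadjusted p under 0.05. In 1 of them, pde6g, a gene of the inhibitory subunit of photoreceptor phosphodiesterase, the controls fell and the change with TBBPA did not pass. Its levels were 0.25, -0.071 and 0.15 at 8 dpf and 0.14, 0.10 and 0.25 at 5 dpf with TBBPA, and -0.56, -0.44 and -0.47 and 0.17, 0.22 and 0.25 in controls. The change was -0.055 ± 0.10 (adjusted p = 0.67) with TBBPA and -0.72 (adjusted p = 8.47e-05) in controls, a difference of 0.66 (adjusted p = 0.0219). Only the control samples at 8 dpf stood apart from the other 3 groups. With the probe of largest spread in place of the mean of its probes, pde6g fell with TBBPA too, and the difference still passed. The other 5 fell more with TBBPA. In each of them the 3 TBBPA samples at 5 dpf lay above all the other samples. The sodium pump subunit atp1a1a.2 was at -0.34, -0.45 and -0.35 against 0.88, 0.74 and 0.75 with TBBPA and -0.47, -0.52 and -0.049 against -0.0022, -0.30 and 0.10 in controls, a difference of -0.91 (adjusted p = 0.0044). The keratin krt17 changed by -1.79 ± 0.12 with TBBPA and -0.97 in controls (difference adjusted p = 0.0155), and the muscle cytochrome oxidase subunit cox6a2 by -0.73 ± 0.079 and -0.10 (adjusted p = 0.0044). The cytochrome P450 gene cyp2y3 changed by -0.83 ± 0.069 and -0.24 (adjusted p = 0.0044) and si:ch211-103n10.5 by -0.63 ± 0.10 and -0.053 (adjusted p = 0.043). With the 12 sample levels as observations none of the 6 passed, and without single samples between 0 and 95 genes passed, with 0 when either link sample, replicate 2 or 3 of the controls at 8 dpf or replicate 3 of TBBPA at 8 dpf was left out.

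**Figure D5:**
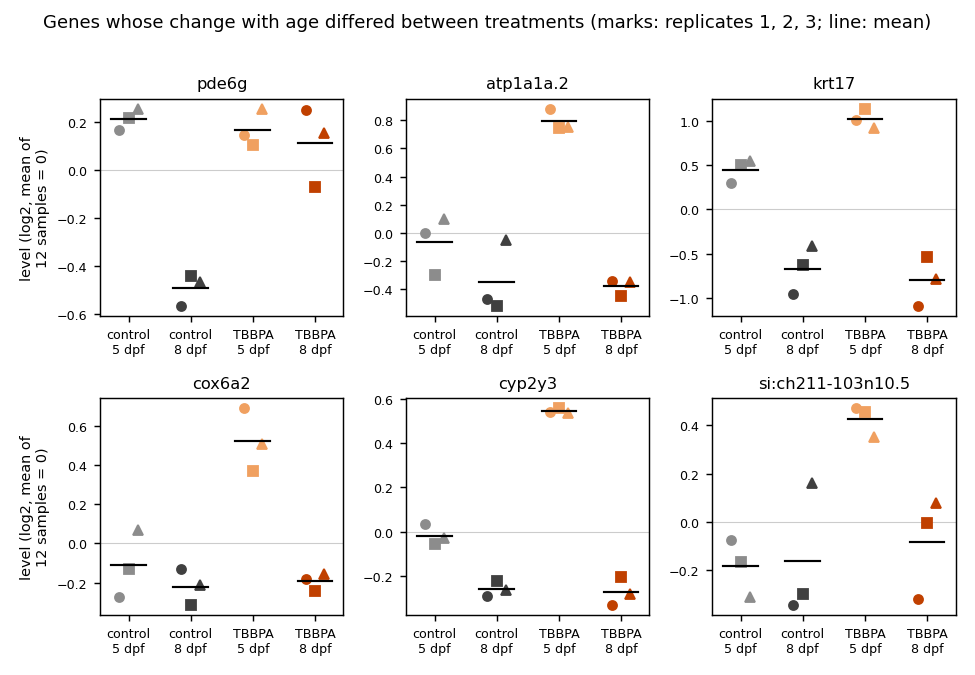
Level (log2, vertical axes) of the 6 genes whose change from 5 to 8 dpf differed between TBBPA and control larvae, in each RNA sample with a line at each group mean. The pde6g panel shows lower levels only in controls at 8 dpf, and the other panels a steeper fall with TBBPA.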

How the data were processed

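Per the methods, the authors labelled material of every sample with Cy3 and, separately, with Cy5. By the labels no pair of RNA samples recurred with the dyes exchanged. The authors read the spots with GenePix software and dropped a spot only if it failed to exceed its background on all arrays. A probe that was kept can thus lie near background on some arrays. They used a normexp background correction and loess within each array, and worked with limma 3.34.4. What they deposited are log2 ratios for 17950 probes on each array, without a gap. Base and direction (Cy5 over Cy3) are not stated in the table and follow the methods and dye labels. With the sign of 1 array turned, the model left 1.02 to 1.88 times the residual sum of squares, whichever array was turned, and a reversal of all arrays cannot be tested so. Their depth is unknown, and the number of arrays limits the precision.

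All 14 arrays (12 RNA samples, 4 groups of 3) were fitted in R 4.3.3 (limma 3.58.1, statmod 1.5.0), with 1 coefficient per group (+1 for Cy5, -1 for Cy3) and the RNA sample as a random effect (share by restricted maximum likelihood, 0), leaving 11 residual and 3.78 prior degrees of freedom for genes. Tests were moderated, two-sided and adjusted by Benjamini-Hochberg over all probes or genes. A probe was called at an adjusted p under 0.05 and an absolute log2 fold change over 0.75. Levels per RNA sample came from least squares on the same arrays and sum to 0 over the 12 samples. With 3 samples against 3, an exact permutation test of single values could not go below p = 0.1 and was not used. The script was tested on simulated data.

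A symbol was carried by 14135 probes, 12089 of them matched by accession to a RefSeq table that was used for names alone, 3815 probes were unnamed, and probes of a symbol were averaged, which gave 8948 genes. Genes were named by a rule. It took the 12 largest rises and falls among called genes whose levels did not overlap and whose direct array had the same sign, the 4 largest passing changes per list and direction, the 8 largest differences between treatments in each direction, and 47 genes always named, 41 of them measured. A further 15 genes were named after their values were seen, namely ascl1a, ccna2, cry1a, crygm7, gnb3b, her6, hes6, insm1b, kif11, mcm6, nr1d2a, per2, rorab, rorcb and top2a. The 38 lists and the named genes were chosen with earlier results of these data known. Not all members named by the rule are described. No promoter sequence was at hand, so that a planned scan for motifs was not run. Alternatives tried were a dye effect, the replicate number as a block, a set share of the RNA sample, sample levels as observations, array centring, array weights, robust moderation, other thresholds, 1 probe per gene, and leaving out each linking array and each RNA sample.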

Additional observations from a re-analysis of the deposited data

Results flagged for a closer look

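For 6 genes the change from 5 to 8 dpf differed between TBBPA and control larvae by the test of the difference itself. The difference, TBBPA minus control, was 0.662 for pde6g, -0.573 for si:ch211-103n10.5, -0.583 for cyp2y3, -0.632 for cox6a2, -0.82 for krt17 and -0.911 for atp1a1a.2 on the log2 scale. Its direction held under all 24 alternatives for each of the 6. It passed under 11 of the 24 alternatives for pde6g, 9 for si:ch211-103n10.5, 17 for cyp2y3, 16 for cox6a2, 12 for krt17 and 17 for atp1a1a.2, and the largest adjusted p were 0.96, 1, 0.268, 1, 1 and 1 in the same order. The keratin krt17 and the muscle gene cox6a2 moved in the direction of the skin and muscle lists, whose medians of the difference were -0.43 and -0.38, and the part of these tissues was not tested.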

How the results depend on the processing

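The counts rest on thresholds, on the weight of single samples and on the unit of replication. Of 1673 called probes, 806 were left with a log2 threshold of 1 and 350 with limma's treat method, and 7774 passed with no threshold on the fold. Leaving out single samples gave 1056 (without the TBBPA link sample) to 2107 called probes (without replicate 2 of TBBPA at 8 dpf), and the other alternatives stayed within 1.5 times. Of 4217 genes, 2775 passed with the share of the RNA sample set to 0.5, and 1286 (without the TBBPA link sample) to 4169 without single samples. For the difference between treatments, 6 genes passed, against 0 with the share at 0.5 or with sample levels as observations, 175 with array weights and 0 to 95 without single samples (95 without replicate 3 of the controls at 5 dpf). The replicate numbers do not pair the samples by their labels. The correlation of same-numbered samples was 0.0424, 0.168 and 0.0914, against -0.13 to 0.0661 for samples of different numbers. With the replicate number as a block 1613 probes were called, 3453 genes passed and the difference passed in 48 genes. Of 147 genes described singly here 145 passed, all 145 kept their direction under the 24 alternatives and 119 kept their call under all of them. Without the TBBPA link sample 22 lost it, with sample levels as observations 5, and under the block 2. The genes described singly were mostly chosen because they passed, some of them after their values were seen. The rule named 258 genes, and not all of these are described. Among those left out, gstr, pde6b, rps7 and rpl29 lost their call without several single samples. The counts above thus hold for the described genes and do not measure the stability of all genes named by the rule. For pde6g, whose change with TBBPA was not called, the value turned from -0.0553 to 0.0743 with array weights and 0.0465 without the array of TBBPA at 8 dpf and the control link sample, and lay between -0.133 and 0.0702 without single samples. With the probe of largest spread pde6g fell and passed, and its lowest value under the alternatives was -0.293. The cause of these shifts was not tested. Counts of listed genes under each alternative were added after seeing the data.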

Other observations

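Of 20 blood vessel genes 8 fell and 3 rose, with a median of -0.14. The apelin receptor aplnrb of sprouting vessels was at -0.21, -0.36 and -0.39 at 8 dpf against 0.39, 0.48 and 0.39 at 5 dpf and fell by 0.80 ± 0.10 (adjusted p = 1.29e-05), and the tight junction gene cldn5b of barrier vessels fell by 0.70 ± 0.08 (adjusted p = 1.01e-05). Against these, plvapa, a diaphragm protein of leaky vessels, was at 0.21, 0.23 and 0.33 against -0.22, -0.27 and -0.20 and rose by 0.55 ± 0.076 (adjusted p = 5.17e-05). The control changes were -0.77, -0.64 and 0.33. Falls in the list numbered 2 without the TBBPA link sample, 4 without replicate 1 of the controls at 8 dpf, and 5 without either the control link sample or replicate 2 of TBBPA at 8 dpf.

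Among the immune genes socs1a, which damps cytokine signals, was at 0.37, 0.84 and 0.52 at 8 dpf against -0.42, -0.65 and -0.65 at 5 dpf and rose by 0.92 ± 0.14 (adjusted p = 9.43e-05), with a control change of 0.58. The chemokine cxcl12a fell by 0.69 ± 0.089 (adjusted p = 2.85e-05) and changed by -0.45 in controls. Of 12 genes of sterol synthesis 3 rose and 2 fell, beside 19.7% rises and 27.4% falls over all genes. The largest change was in hmgcs1, an early enzyme of the pathway, at -0.30, -0.37 and -0.33 against 0.49, 0.56 and 0.61, and it fell by 0.95 ± 0.10 (adjusted p = 2.79e-06). Its control change was -0.77. The levels of none of these genes overlapped between the ages in TBBPA-treated eyes.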
